A study of Homo sapiens with 18 samples.

Results

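The cytosolic ribosomal protein genes were described across 18 human whole-transcriptome microarrays, 3 in each of 6 groups. Members are the genes whose symbol is RPL or RPS followed by a number, with or without a letter ending, plus RPLP0, RPLP1, RPLP2 and RPSA. Each is represented by its brightest probe set over the 18 arrays, and 54 of the 22465 genes measured met this rule, 33 of the large and 21 of the small subunit. The groups were JJN3 cells under amiloride at 0.4 mM, JJN3 under TG003 at 0.4 mM, JJN3 in DMSO, KMS12-BM cells under amiloride at 0.1 mM, KMS12-BM under TG003 at 0.4 mM, and KMS12-BM in DMSO. Exposure lasted 24 h. JJN3, labelled plasma cell leukemia, and KMS12-BM, labelled multiple myeloma, are single established lines, and each is 1 model of its disease. The lines also differ in medium, since serum was 10% for JJN3 and 20% for KMS12-BM, so line and serum cannot be told apart, and neither can line and dose for amiloride. Amiloride blocks the epithelial sodium channel and is used as a diuretic, while TG003 inhibits CLK kinases, which phosphorylate splicing factors.

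A cytosolic ribosome has a small subunit, which reads the messenger RNA, and a large subunit, which joins amino acids and passes the chain out through a tunnel. The genes of its proteins are among the most highly expressed of any cell, and plasma cells depend on them to make secreted antibody. Many of their messages begin with a cytosine and a run of pyrimidines, the 5′ terminal oligopyrimidine (TOP) tract, through which the kinase mTORC1 and the protein LARP1 control their translation and stability.

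All values below are log2 values, differences are between group means on the log2 scale with the standard error (SE) of a limma fit over 3 arrays in each group, and a gene is called at an adjusted p under 0.05 over all 22465 genes. Of 84 RefSeq protein-coding symbols that fit the rule, 54 were measured by a probe set of their own. Another 21 share their probe set with a second symbol, in 19 cases a small nucleolar RNA encoded in an intron, and 9 carry no entry in the annotation used, so RPLP0, RPLP2, RPSA, RPL3, RPL5, RPL13A and RPL32 were not analysed here. Mean levels of the members ran between 3.34 and 17.26 over the 18 arrays. The background reference was 6.87, the 95th percentile of 92 control probe sets, and 49 members and 8535 genes in all had a group mean above it. The other 5 members were RPL3L, RPL10L, RPL22L1, RPL26L1 and RPS27L, so their differences rest on dim signals. RPL31, RPL37A, RPL39L and RPS14 were above the reference in some groups and below it in others. For 6 members the mean exceeded 16, the bit depth of a scanner, so the scale may hold a further transformation and log2 differences were not turned into folds.

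The lines were checked against their marker genes. CCND1 was at 6.08 in JJN3 and 14.87 in KMS12-BM in DMSO, CCND2 at 15.22 and 5.98, and MAF at 11.16 and 4.84. A translocation is known to drive MAF in JJN3 and CCND1 in KMS12-BM. Of 8 plasma cell markers, CD38 was at 6.03 in JJN3 and 11.54 in KMS12-BM, SDC1 at 7.34 and 5.69, and JCHAIN at 16.60 and 5.50, all in DMSO, so JJN3 had little CD38 and KMS12-BM little SDC1 or JCHAIN. The others lay above the background reference in both lines in DMSO. IRF4 was at 14.39 in JJN3 and 14.76 in KMS12-BM, XBP1 at 11.50 and 10.87, and PRDM1 at 11.40 and 10.23. TNFRSF17 was at 8.67 and 9.73, and MZB1 at 8.46 and 9.22. The cell line field of the third KMS12-BM amiloride array reads JJN3, but that array had CCND1 at 14.84 and correlated across genes at 0.998 with the other KMS12-BM amiloride arrays, against 0.932 with the JJN3 amiloride arrays. It was kept as KMS12-BM, and counts without it are given with the amiloride results. Correlations within groups across genes were 0.9955 to 0.9984.

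The start sites are shown because the TOP tract is the best known sequence feature that these genes share, and the rule did not use it. RefSeq starts (GRCh38.p14) were matched for 47 members. A tract, read here on the gene's strand as C at the first base followed by at least 4 bases that are C or T, stood at a start in 33 of 47 (70.2%), against 1404 of 27305 genes with a start in the same table (5.14%). The 30-base windows below hold 15 bases before the start and 15 from it, with the tract in capitals, for 6 members on which the results turn and for both pairs of a canonical gene and its paralog that responded.
RPL31: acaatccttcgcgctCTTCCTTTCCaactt
RPS23: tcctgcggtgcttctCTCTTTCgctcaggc
RPL12: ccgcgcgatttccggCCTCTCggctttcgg
RPS12: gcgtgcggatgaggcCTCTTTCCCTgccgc
RPS4X: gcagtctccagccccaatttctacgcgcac
RPL7L1: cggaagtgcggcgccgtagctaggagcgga
RPL22: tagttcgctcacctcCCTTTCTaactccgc
RPL22L1: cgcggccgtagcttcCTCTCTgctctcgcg
RPL26: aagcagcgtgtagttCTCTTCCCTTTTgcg
RPL26L1: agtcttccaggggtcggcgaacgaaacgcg
These windows lie at chr2:101002274-101002303 on the plus strand for RPL31, chr5:82278340-82278369 on the minus strand for RPS23, chr9:127451392-127451421 on the minus strand for RPL12 and chr6:132814554-132814583 on the plus strand for RPS12. They lie at chrX:72277234-72277263 on the minus strand for RPS4X, chr6:42879601-42879630 on the plus strand for RPL7L1, chr1:6199581-6199610 on the minus strand for RPL22 and chr3:170870181-170870210 on the minus strand for RPL22L1. For RPL26 the window is at chr17:8383179-8383208 on the minus strand, and for RPL26L1, the first of 2 annotated starts, at chr5:172958714-172958743 on the plus strand. The paralog RPL22L1 holds a tract as RPL22 does, whereas RPL26L1, unlike RPL26, holds none at either start. The 14 matched members with no tract at an annotated first base were RPL6, RPL7L1, RPL9, RPL10A, RPL10L, RPL19, RPL26L1, RPL27, RPS4X, RPS7, RPS15, RPS27L, RPS28 and RPS29. A tract that lies a few bases from the annotated start was not counted, so these genes may still have TOP messages. A run of C and T lies just after the annotated start of RPL10A and RPS28, and another crosses the second annotated start of RPL19.

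The first comparison asks how the lines differ without drug. Ribosomal protein genes were more often lower than higher in JJN3 than in KMS12-BM: 23 of 54 were called lower and 4 higher, with a median difference of -0.18. Over all genes 22.3% were called lower, 18.9% higher and 41.2% in either direction. Over genes above the background reference 40.7% were called lower, 33.1% higher and 73.8% in either direction, and the medians were -0.02 and -0.10. In bulk RNA, fewer cells of a type and less RNA per cell cannot be told apart. The arrays were also scaled towards a common distribution, though their medians still ran between 4.50 and 4.69. The members' share of calls (27 of 54) thus was below that of well-expressed genes in all, while most of the calls were in 1 direction. The large subunit had 15 lower and 2 higher of 33, and the small subunit 8 lower and 2 higher of 21.

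**Figure D1:**
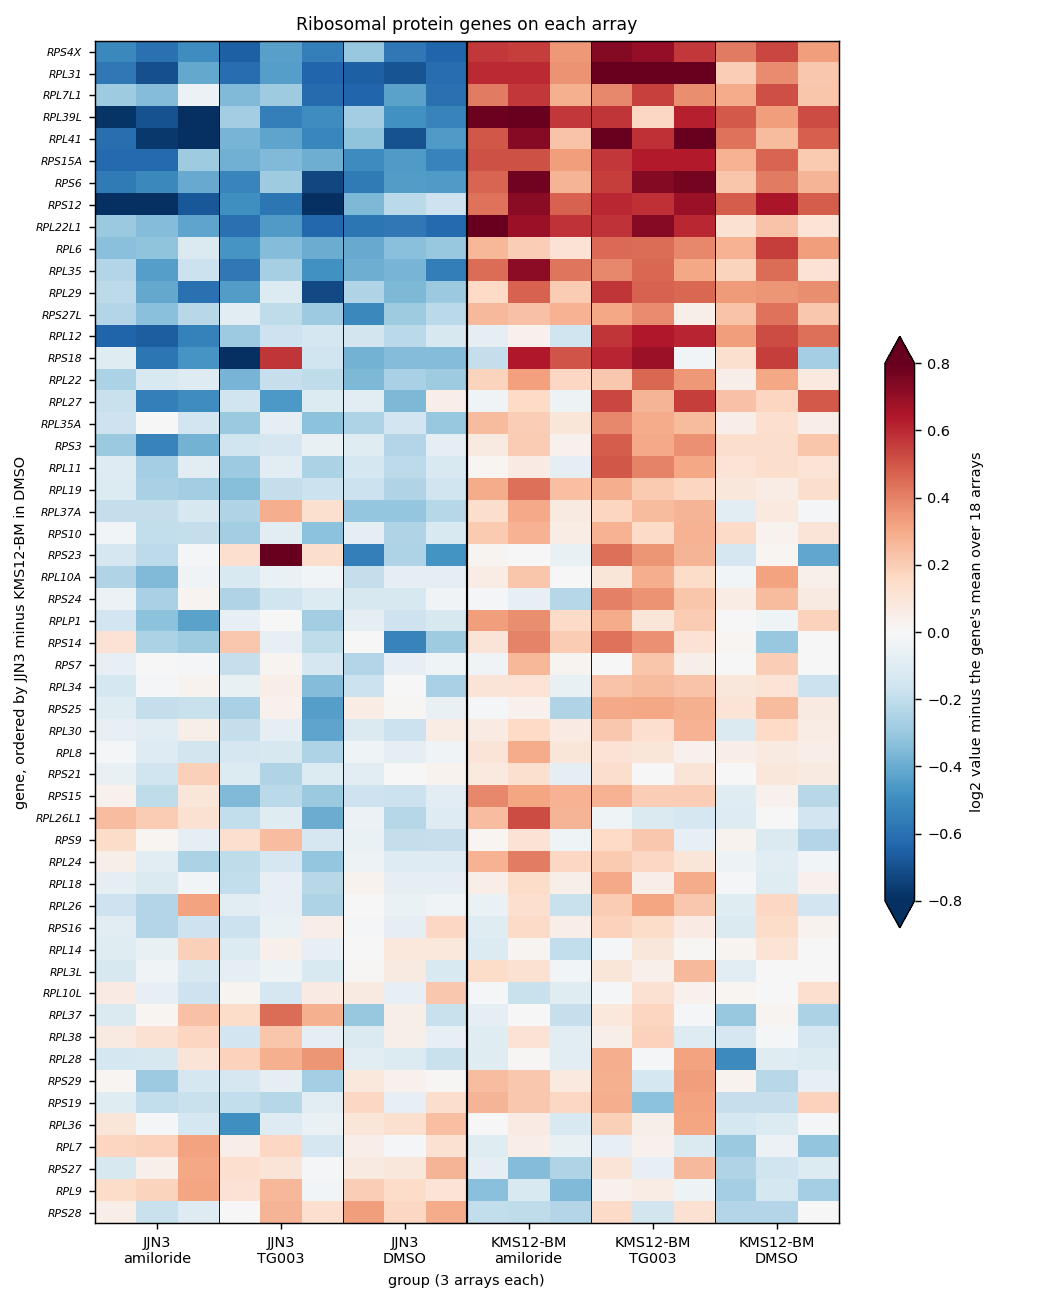
Each row is 1 of the 54 ribosomal protein genes, ordered by the difference of JJN3 minus KMS12-BM in DMSO, and each column is 1 array of the group named below it. Colour is the log2 value minus the gene's mean over 18 arrays, blue below and red above it, and the rows at the top, down to about RPL22, are blue on nearly all JJN3 arrays and red on nearly all KMS12-BM arrays under every treatment.

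RPS4X, the X-linked gene of a small-subunit protein, was at 10.50, 10.23 and 10.17 in JJN3 DMSO arrays, against 11.22, 11.34 and 11.14 in KMS12-BM DMSO arrays. The groups did not overlap, and the difference was -0.93 ± 0.09 (adjusted p = 2.2e-07). RPL31, whose protein sits beside the mouth of the exit tunnel, was at 6.33, 6.29 and 6.37 in JJN3, against 7.18, 7.36 and 7.20 in KMS12-BM. Its JJN3 values lay below the background reference and all KMS12-BM values above it, with a difference of -0.92 ± 0.08 (adjusted p = 1.1e-07). RPL7L1, a paralog of RPL7 with a part in making the large subunit, was at 9.96, 10.17 and 10.00 in JJN3, against 10.89, 11.11 and 10.82 in KMS12-BM. RPL39L, a paralog of RPL39 best known from male germ cells, was at 7.25, 7.04 and 6.99 in JJN3, against 8.02, 7.86 and 8.05 in KMS12-BM. RPL41, which encodes an exceptionally short basic peptide, was at 11.93, 11.56 and 11.80 in JJN3, against 12.69, 12.51 and 12.73 in KMS12-BM. For these last members too every JJN3 array lay below every KMS12-BM array, with differences of -0.90 ± 0.11 for RPL7L1, -0.89 ± 0.12 for RPL39L and -0.88 ± 0.13 for RPL41 (adjusted p = 2.9e-06, 7.9e-06 and 2.6e-05).

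Further members lower in JJN3 were RPS15A at -0.81 ± 0.09, RPS6, the target of the S6 kinases, at -0.80 ± 0.12, RPS12 at -0.79 ± 0.11, RPL22L1 at -0.75 ± 0.08, RPL6 at -0.74 ± 0.08, RPL35 at -0.69 ± 0.11 and RPL29 at -0.65 ± 0.13. RPS27L, a paralog of RPS27 that p53 induces, differed by -0.63 ± 0.09, and RPL12, at the base of the stalk that binds translation factors, by -0.60 ± 0.07. Of these differences, those of RPS15A, RPS6, RPS12, RPL22L1, RPL6, RPL35, RPL29, RPS27L and RPL12 had adjusted p between 4.2e-07 and 0.00043. The 4 members higher in JJN3 were RPS28, near the exit of the messenger RNA channel, at 16.95, 16.78 and 16.91 in JJN3 and 16.38, 16.38 and 16.61 in KMS12-BM (0.43 ± 0.10, adjusted p = 0.0014), RPL9 (0.38 ± 0.08, adjusted p = 0.00078), RPS27 (0.31 ± 0.11, adjusted p = 0.028) and RPL7 (0.27 ± 0.09, adjusted p = 0.018). RPL9 was at 9.24, 9.19 and 9.15 in JJN3 and at 8.77, 8.90 and 8.77 in KMS12-BM. RPS27 was at 13.64, 13.66 and 13.84 in JJN3 and at 13.33, 13.41 and 13.46 in KMS12-BM, and RPL7 at 11.11, 11.04 and 11.18 in JJN3 and at 10.76, 11.01 and 10.74 in KMS12-BM. In none of these 4 genes did the lines overlap, but the calls of RPS27 and RPL7 were lost in 4 of 13 alternatives each (highest adjusted p = 0.12 and 0.086). Without KMS12-BM DMSO array 1, or without JJN3 DMSO array 3, 2 members were called higher instead of 4. Of the 27 calls 20 held in every alternative that tested the gene, RPS28, RPL9 and all named members lower in JJN3 among them. The alternative with dim genes left out did not test RPL22L1 or RPS27L.

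Under TG003 in KMS12-BM, 12 of 54 ribosomal protein genes were called higher, none was called lower and 42 were not called, while the median was 0.20 and 50 of 54 differences were above 0. Over all genes 8.30% were called higher, 6.52% lower and 14.8% in either direction. Over genes above the background reference 16.4% were called higher, 14.2% lower and 30.6% in either direction, with medians of -0.01 over all genes and 0.02 over these. The members' 12 of 54 lies near the share of well-expressed genes called higher, and the members differ from it in having no lower call and a higher median. The count of calls depended on single arrays, with 4 higher without KMS12-BM DMSO array 1, 5 without DMSO array 3, TG003 array 1 or TG003 array 3, and 10 at most without any 1 array. It was 7 in a fit of only these groups, 8 with arrays centred on their median and 10 after a further quantile normalization. The median stayed between 0.17 and 0.21 with any 1 array left out, with 46 to 52 members above 0, and was 0.17 to 0.18 under the other scalings. Both subunits took part, with 8 of 33 large-subunit and 4 of 21 small-subunit members called. The median of the array-by-array level, in which each member is set against its own mean over 18 arrays, was 0.29, 0.24 and 0.27 on the TG003 arrays and 0.03, 0.12 and 0.06 on the DMSO arrays, without overlap. For genes above the background reference the same medians were 0.03, 0.07 and 0.02 under TG003 and 0.01, 0.04 and -0.03 in DMSO, which overlap.

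**Figure D2:**
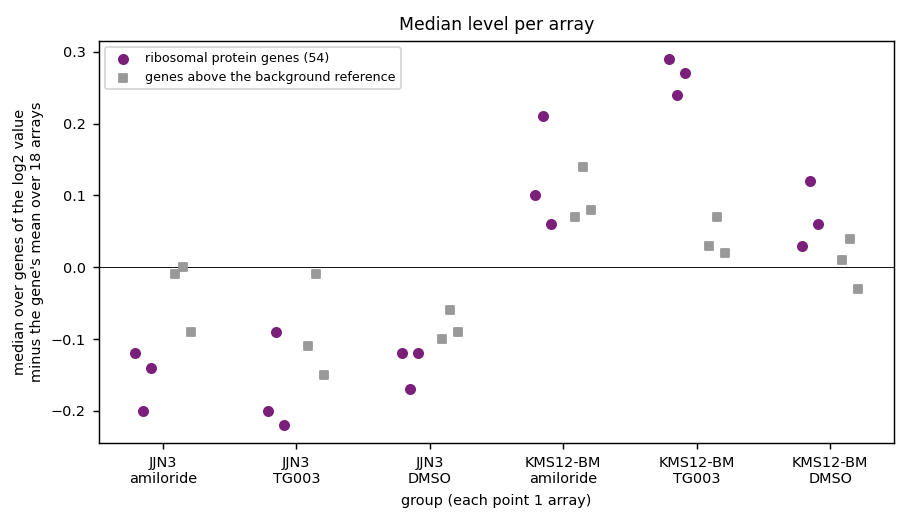
Each point is 1 array, and the vertical axis is the median over genes of the log2 value minus the gene's mean over 18 arrays, for the 54 ribosomal protein genes (circles) and for genes above the background reference (squares). The KMS12-BM TG003 arrays hold the highest circles, 0.24 to 0.29, above the KMS12-BM DMSO arrays at 0.03 to 0.12, while the JJN3 arrays lie at -0.09 or lower under every treatment.

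RPL31 had the largest rise, at 7.95, 8.02 and 7.96 under TG003, against 7.18, 7.36 and 7.20 in DMSO. The TG003 arrays lay far above the DMSO arrays, by 0.73 ± 0.08 (adjusted p = 3e-05). RPL22L1 was at 6.59, 6.74 and 6.61 under TG003, against 6.13, 6.24 and 6.12 in DMSO, a rise of 0.48 ± 0.08 (adjusted p = 0.00042) within the dim range. These 2 calls held in all alternatives that tested them, and the alternative with dim genes left out did not test RPL22L1. RPS23, whose protein lines the decoding centre of the small subunit, was at 10.52, 10.43 and 10.35 under TG003, against 9.94, 10.09 and 9.66 in DMSO. The groups did not overlap, and RPS23 rose by 0.53 ± 0.16 (adjusted p = 0.028). RPL28, a large-subunit protein that budding yeast lacks, was at 10.55, 10.25 and 10.58 under TG003, against 9.75, 10.16 and 10.15 in DMSO. It rose by 0.44 ± 0.11 (adjusted p = 0.012), and DMSO array 1 was the lowest. RPL41 was at 13.11, 12.84 and 13.24 under TG003, against 12.69, 12.51 and 12.73 in DMSO, a rise of 0.42 ± 0.13 (adjusted p = 0.039). The calls of RPS23, RPL28 and RPL41 were lost in 5, 4 and 7 of 13 alternatives, each of them without KMS12-BM DMSO array 1 among others, with a highest adjusted p of 0.14, 0.1 and 0.17.

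The other 7 members that rose under TG003 in KMS12-BM were RPS6 (0.38 ± 0.12), RPS15 (0.32 ± 0.08), RPS15A (0.30 ± 0.09), RPL11 (0.28 ± 0.07), RPL18 (0.25 ± 0.07), RPL9 (0.25 ± 0.08) and RPL35A (0.23 ± 0.07). RPL11, which with RPL5 and 5S RNA forms a particle that binds MDM2 and so stabilises p53 when ribosome assembly fails, was at 11.54, 11.44 and 11.35 under TG003, against 11.15, 11.18 and 11.15 in DMSO (adjusted p = 0.011). Its groups did not overlap, and its call was lost only without TG003 array 1 (adjusted p = 0.056). RPS15, a protein of the small-subunit head, was at 17.53, 17.45 and 17.45 under TG003, against 17.16, 17.29 and 17.03 in DMSO (adjusted p = 0.01), again without overlap. The RPS15 call was lost without DMSO array 3 and after quantile normalization (highest adjusted p = 0.14). Calls of RPS6, RPS15A, RPL18, RPL9 and RPL35A had adjusted p between 0.026 and 0.048 and were lost in 6 to 10 of 13 alternatives each. Members with a TOP tract at a start had a median of 0.21 with 9 of 33 called, and those without one a median of 0.11 with 2 of 14 called. The class without a tract holds the paralogs RPL7L1, RPL10L, RPL26L1 and RPS27L, and the class with one holds the paralog RPL22L1. Over all 7 members named as L or L1 paralogs the median was 0.00, with 1 called higher. The classes thus differ in paralogs as well as in the tract, and they rest on the annotated first base. The difference between these classes was not tested.

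**Figure D3:**
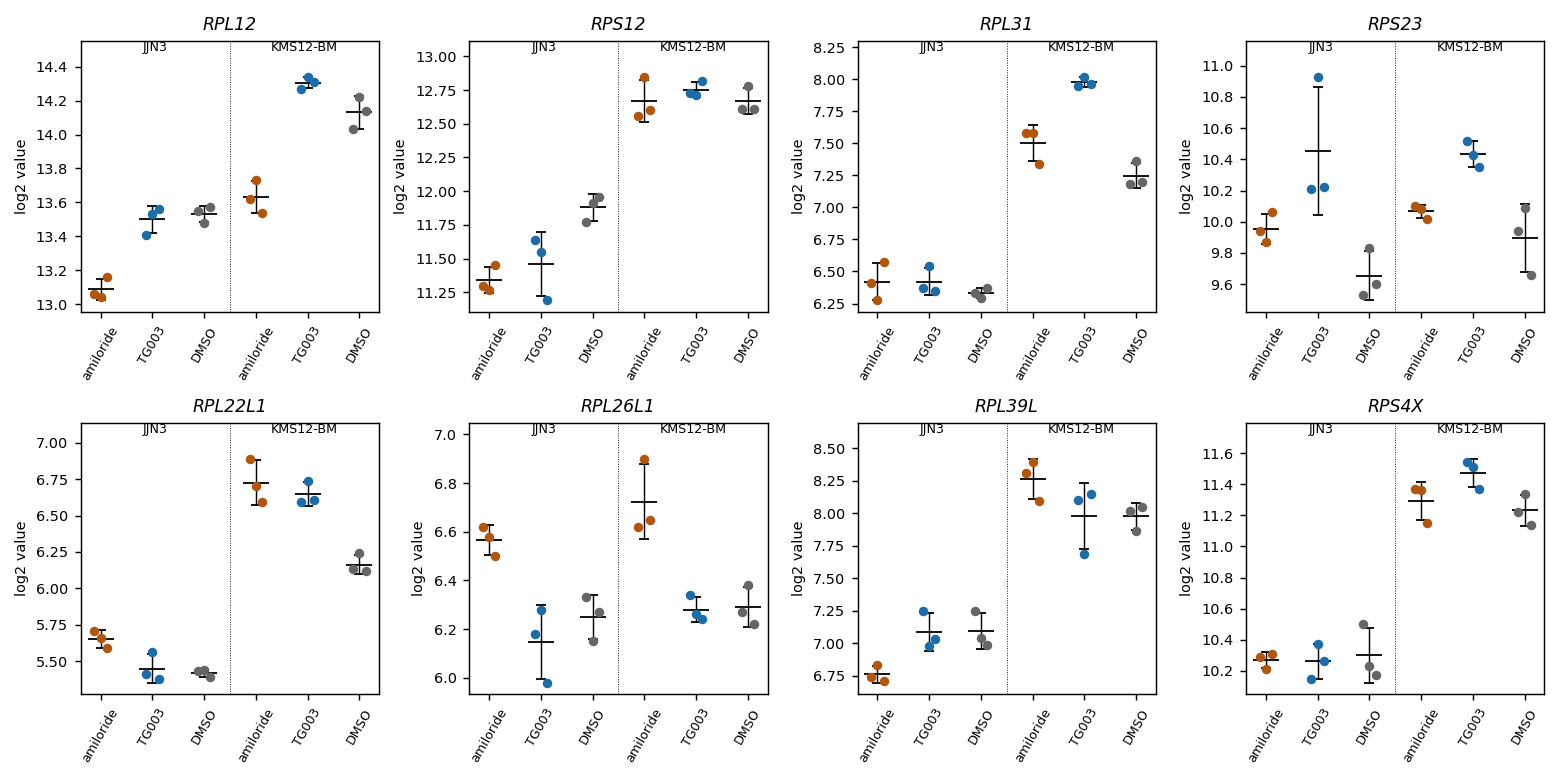
Log2 values of 8 ribosomal protein genes on every array, with JJN3 left and KMS12-BM right of the dotted line in each panel and amiloride, TG003 and DMSO in that order. Points are arrays, and bars give the mean ± SD of 3 arrays. RPL12 is lowest under amiloride in both lines, RPL31 is highest under TG003 in KMS12-BM, and RPS23 is higher under TG003 than in DMSO in both lines, with JJN3 TG003 array 2 far above the other JJN3 arrays.

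In JJN3, TG003 called 4 of 54 members higher and 2 lower, with a median of -0.04 and 21 members above 0. Over all genes 3.74% were called higher, 5.64% lower and 9.38% in either direction. Over genes above the background reference 7.11% were called higher, 11.9% lower and 19.0% in either direction, so the members' 6 of 54 (11.1%) lies between the shares in either direction. RPS23 was at 10.21, 10.93 and 10.22 under TG003, against 9.53, 9.83 and 9.60 in DMSO. The groups did not overlap, TG003 array 2 stood highest, and RPS23 rose by 0.80 ± 0.16 (adjusted p = 0.0033), a call that held in all alternatives, also without that array. RPL28 was at 10.44, 10.54 and 10.61 under TG003, against 10.17, 10.15 and 10.08 in DMSO, also without overlap, and rose by 0.40 ± 0.11 (adjusted p = 0.031). RPL28 and RPS23 were the members called under TG003 in both lines.

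RPL37, a zinc-binding protein of the large subunit, was at 10.03, 10.33 and 10.17 in JJN3 under TG003, against 9.58, 9.93 and 9.71 in DMSO, and rose by 0.43 ± 0.11 (adjusted p = 0.026). RPL37A, another zinc-binding protein of the large subunit, was at 6.40, 6.93 and 6.77 under TG003, against 6.33, 6.33 and 6.41 in DMSO (0.34 ± 0.10, adjusted p = 0.044). Its groups overlapped, since TG003 array 1 lay below DMSO array 3, and both means lay below the background reference. RPS12, a protein of the small-subunit beak, was at 11.64, 11.55 and 11.19 under TG003, against 11.77, 11.91 and 11.96 in DMSO, and fell by 0.42 on the log2 scale (SE 0.11, adjusted p = 0.018). RPL36 was at 12.80, 13.19 and 13.24 under TG003, against 13.39, 13.42 and 13.53 in DMSO, and fell by 0.37 on the log2 scale (SE 0.11, adjusted p = 0.039), with TG003 array 1 far below the rest. These calls and that of RPL28 were lost in several alternatives. Those of RPL28, RPL37 and RPL37A were lost without JJN3 DMSO array 1, DMSO array 3, TG003 array 2 or TG003 array 3, RPL28 and RPL37A also without DMSO array 2. That of RPS12 was lost without DMSO array 2, DMSO array 3 or TG003 array 3, and that of RPL36 without any 1 DMSO array or TG003 array 1. All but RPL28 were also lost in a fit of only these groups. RPL37A and RPL36 were also lost with an intensity trend and robust variance, RPL37A with arrays centred on their median, and RPL36 after a further quantile normalization. The highest adjusted p was 0.11 for RPL28, 0.12 for RPL37, 0.19 for RPL37A, 0.086 for RPS12 and 0.17 for RPL36. Leaving out 1 array gave 1 to 4 members higher and 0 to 3 lower, with 1 higher without DMSO array 1, DMSO array 3 or TG003 array 2, 2 higher without DMSO array 2 or TG003 array 3, none lower without DMSO array 2 or 3, and 1 lower without DMSO array 1, TG003 array 1 or TG003 array 3. The split was 5 higher and 1 lower after a further quantile normalization.

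The response to TG003 was compared between the lines as the difference of the differences, which has the same dose in both. It was negative, that is lower in JJN3 than in KMS12-BM, for 48 of 54 members, with a median of -0.20, against medians of 0.02 over all genes and -0.06 over genes above the background reference. Of the members 5 were called, all lower, where 2.64% of all genes were called lower, 1.92% higher and 4.57% in either direction, and of genes above the background reference 5.52% were called lower, 4.04% higher and 9.56% in either direction. RPL31 differed by -0.64 ± 0.12 (adjusted p = 0.0058), with responses of 0.09 ± 0.08 in JJN3 and 0.73 ± 0.08 in KMS12-BM, and this call held in all alternatives. All JJN3 values of RPL31 lay below the background reference, so its response in JJN3, and with it the size of the difference, rests on dim signals. RPL36 differed by -0.64 ± 0.15 (adjusted p = 0.023), with responses of -0.37 ± 0.11 in JJN3 and 0.27 ± 0.11 in KMS12-BM. RPS15 differed by -0.47 ± 0.11, RPL22L1 by -0.45 ± 0.11 and RPL18 by -0.37 ± 0.10 (adjusted p = 0.024, 0.025 and 0.046). The count was 1 without KMS12-BM DMSO array 1, 2 without KMS12-BM DMSO array 3 or JJN3 DMSO array 3, 3 without JJN3 DMSO array 1 or 2 or without TG003 array 1 or 3 of either line, and 7 at most. The median stayed between -0.25 and -0.18 with any 1 array left out and was -0.15 after quantile normalization.

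**Figure D4:**
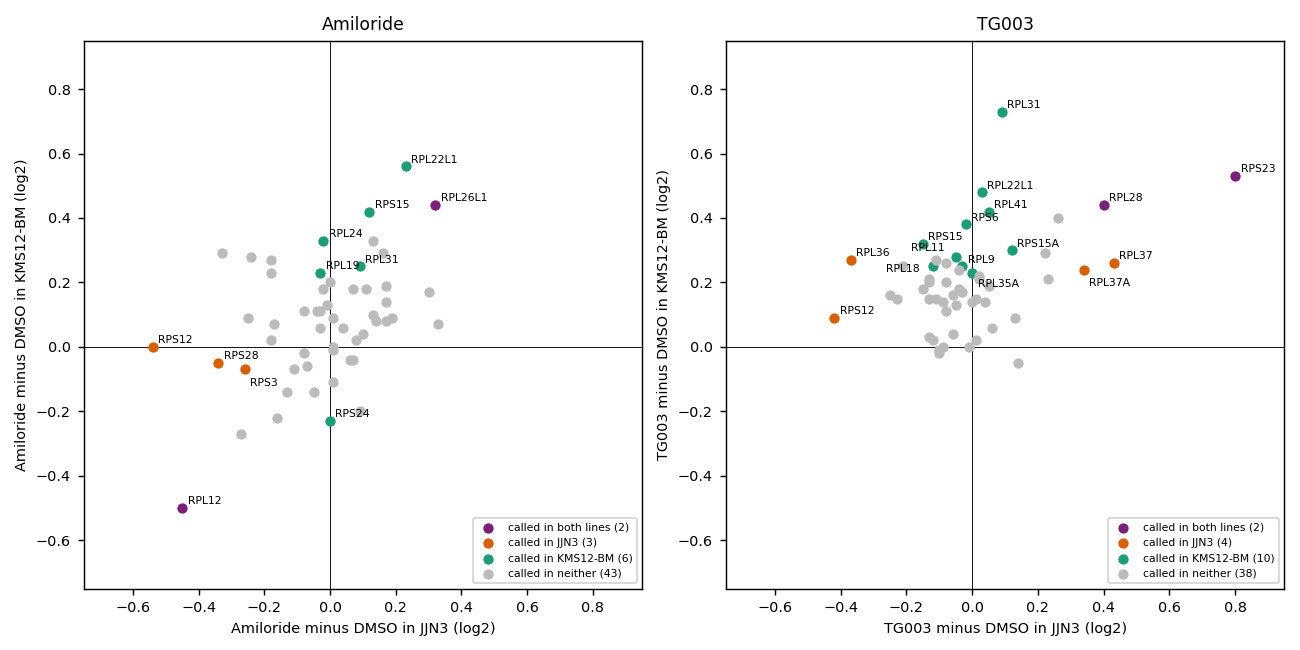
Each point is 1 of the 54 ribosomal protein genes, with the log2 difference of drug minus DMSO in JJN3 on the horizontal axis and in KMS12-BM on the vertical axis, for amiloride (left) and TG003 (right). Colours mark the lines in which a gene was called. Under TG003 most points lie above the horizontal zero line, 50 of 54, while 21 of 54 lie right of the vertical one.

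Amiloride at 0.1 mM in KMS12-BM called 6 of 54 members higher and 2 lower, with a median of 0.08. Over all genes 17.0% were called higher, 13.6% lower and 30.6% in either direction, with a median of -0.02. Over genes above the background reference 35.7% were called higher, 24.2% lower and 59.9% in either direction, with a median of 0.08, so the 8 called of 54 members are fewer than that share would give. After a further quantile normalization the median was -0.02, with 6 members higher and 6 lower. RPL12 was at 13.62, 13.73 and 13.54 under amiloride, against 14.03, 14.22 and 14.14 in DMSO. All amiloride arrays lay below all DMSO arrays, and RPL12 fell by 0.50 on the log2 scale (SE 0.07, adjusted p = 1.6e-05). RPS24 was at 9.51, 9.45 and 9.29 under amiloride, against 9.58, 9.77 and 9.59 in DMSO, and fell by 0.23 (SE 0.08, adjusted p = 0.048), a call lost in 9 of 13 alternatives.

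RPL22L1 was at 6.89, 6.70 and 6.59 in KMS12-BM under amiloride, against 6.13, 6.24 and 6.12 in DMSO, and RPL26L1 at 6.62, 6.90 and 6.65, against 6.27, 6.38 and 6.22. Both paralogs lay wholly above their DMSO arrays, RPL22L1 by 0.56 ± 0.08 (adjusted p = 2.1e-05) and RPL26L1 by 0.44 ± 0.09 (adjusted p = 0.00078). RPS15 was at 17.64, 17.57 and 17.53 under amiloride, against 17.16, 17.29 and 17.03 in DMSO. RPL24, which forms a bridge between the subunits, was at 15.19, 15.32 and 15.08 under amiloride, against 14.87, 14.83 and 14.89 in DMSO. Both rose without overlap, RPS15 by 0.42 ± 0.08 (adjusted p = 0.00043) and RPL24 by 0.33 ± 0.08 (adjusted p = 0.0027). RPL31 was at 7.58, 7.58 and 7.34 under amiloride, against 7.18, 7.36 and 7.20 in DMSO, so amiloride array 3 overlapped the DMSO range, and it rose by 0.25 ± 0.08 (adjusted p = 0.03). RPL19 rose by 0.23 ± 0.07 (adjusted p = 0.014). The calls of RPL12, RPL22L1, RPL26L1, RPS15 and RPL24 held in all alternatives that tested them, those of RPL31 and RPL19 were lost in 6 and 2 of 13. The alternative with dim genes left out did not test RPL22L1 or RPL26L1. Without amiloride array 3, whose cell line field conflicts with its other labels, 8 members were called higher and 1 lower, and RPL12 had a difference of -0.46 (adjusted p = 0.00017), RPL22L1 of 0.63, RPL26L1 of 0.47, RPS15 of 0.45 and RPL24 of 0.39. The count of members lower was also 1 without DMSO array 2, DMSO array 3 or amiloride array 2.

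Amiloride at 0.4 mM in JJN3 called 1 of 54 members higher and 4 lower, with a median of -0.00. Over all genes 8.65% were called higher, 6.12% lower and 14.8% in either direction, and over genes above the background reference 19.6%, 12.3% and 32.0%, so the 5 called of 54 members are fewer than the last share would give. RPL12 was at 13.06, 13.04 and 13.16 under amiloride, against 13.55, 13.48 and 13.57 in DMSO, and fell by 0.45 on the log2 scale (SE 0.07, adjusted p = 0.00025). RPS12 was at 11.30, 11.27 and 11.45 under amiloride, against 11.77, 11.91 and 11.96 in DMSO, and fell by 0.54 (SE 0.11, adjusted p = 0.0022). For both genes the amiloride arrays lay wholly below the DMSO arrays, and both calls held in all alternatives. RPS28 was at 16.67, 16.44 and 16.51 under amiloride, against 16.95, 16.78 and 16.91 in DMSO, and fell by 0.34 (SE 0.10, adjusted p = 0.022). RPS3, at the entry of the messenger RNA channel, was at 13.48, 13.24 and 13.40 under amiloride, against 13.68, 13.54 and 13.70 in DMSO, and fell by 0.26 (SE 0.07, adjusted p = 0.021). RPL26L1 was at 6.62, 6.58 and 6.50 under amiloride, against 6.33, 6.15 and 6.27 in DMSO, and rose by 0.32 ± 0.09 (adjusted p = 0.02). None of these groups overlapped, but the calls of RPS28, RPS3 and RPL26L1 were lost without certain single arrays (highest adjusted p = 0.099, 0.11 and 0.095). That of RPS3 was also lost in a fit of only these groups and after a further quantile normalization. Without JJN3 amiloride array 1 no member was called higher, and without JJN3 DMSO array 1, DMSO array 3 or amiloride array 2 the count of members lower was 2. With arrays centred on their median 2 members were higher and 4 lower, and after quantile normalization 2 were higher and 3 lower. RPL12, lower, and RPL26L1, higher, were the members called under amiloride in both lines.

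Doses differed for amiloride, so the difference between its responses in JJN3 and KMS12-BM holds dose as well as line. It was called for 5 of 54 members, all lower in JJN3, with a median of -0.07. Over all genes 9.78% were called lower, 8.68% higher and 18.5% in either direction, and over genes above the background reference 20.4%, 17.3% and 37.7%. RPL39L was at 6.74, 6.83 and 6.71 under amiloride in JJN3, against 7.25, 7.04 and 6.99 in DMSO, and at 8.31, 8.39 and 8.09 under amiloride in KMS12-BM, against 8.02, 7.86 and 8.05 in DMSO. It thus lay below DMSO in JJN3 (-0.33 ± 0.12, adjusted p = 0.07) and above it in KMS12-BM (0.29 ± 0.12, adjusted p = 0.082), neither called alone, and the responses differed by -0.62 ± 0.17 (adjusted p = 0.014). All its JJN3 values under amiloride lay below the background reference. RPS12 differed by -0.54 ± 0.15 (adjusted p = 0.017), with a response of 0.00 ± 0.11 in KMS12-BM. RPLP1, a phosphoprotein of the stalk that recruits elongation factors, differed by -0.42 ± 0.13, RPL24 by -0.35 ± 0.11 and RPL22L1 by -0.33 ± 0.11 (adjusted p = 0.036, 0.035 and 0.044). The count of members lower ran between 1 and 7 with 1 array left out, with 1 without KMS12-BM amiloride array 2, 2 without KMS12-BM DMSO array 1, KMS12-BM amiloride array 1, any 1 JJN3 DMSO array or JJN3 amiloride array 2, and 3 without JJN3 amiloride array 3. It was 5 without KMS12-BM amiloride array 3.

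The drugs were set against each other within each line. In KMS12-BM, amiloride at 0.1 mM against TG003 at 0.4 mM gave 10 of 54 members lower and 1 higher, with a median of -0.11. Over all genes 14% were called lower, 15.8% higher and 29.8% in either direction, and over genes above the background reference 25.1%, 34.1% and 59.2%. After quantile normalization 20 were lower and 3 higher, with arrays centred on their median 8 were lower and 2 higher, and without amiloride array 3, 6 were lower and 2 higher. Without TG003 array 3 also 2 were higher. RPL12 differed most, by -0.68 ± 0.07 (adjusted p = 6.8e-07), its amiloride values of 13.62, 13.73 and 13.54 lying wholly below 14.27, 14.34 and 14.31 under TG003. RPL31 differed by -0.47 ± 0.08 (adjusted p = 0.00029), RPS24 by -0.43 ± 0.08 (adjusted p = 0.00064), RPL27 by -0.42 ± 0.13 (adjusted p = 0.023), RPL11 by -0.40 ± 0.07 (adjusted p = 0.00028), RPS25, a protein that many viral internal ribosome entry sites need, by -0.37 ± 0.10 (adjusted p = 0.0073), and RPL26L1 by 0.44 ± 0.09 (adjusted p = 0.00069). Apart from RPL27, lost in 4 of 13, these calls held in all alternatives that tested them. The alternative with dim genes left out did not test RPL26L1.

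In JJN3, with both drugs at 0.4 mM, 3 of 54 members were lower under amiloride than under TG003 and 2 higher, with a median of 0.02. Over all genes 6.41% were called lower, 10.5% higher and 16.9% in either direction, and over genes above the background reference 10.8%, 23.5% and 34.4%. RPL12 was lower by -0.41 ± 0.07 (adjusted p = 0.00041), at 13.06, 13.04 and 13.16 under amiloride and 13.41, 13.53 and 13.56 under TG003. RPL26L1 was higher by 0.42 ± 0.09 (adjusted p = 0.003), at 6.62, 6.58 and 6.50 under amiloride and 6.18, 6.28 and 5.98 under TG003. In both genes the drugs did not overlap, and both calls held in all alternatives that tested them. The alternative with dim genes left out did not test RPL26L1. RPS23 (-0.49 ± 0.16, adjusted p = 0.038), RPS3 (-0.29 ± 0.07, adjusted p = 0.011) and RPS15 (0.26 ± 0.08, adjusted p = 0.028) were lost in 5, 2 and 7 of 13 alternatives, RPS23 also without JJN3 TG003 array 2, its highest array. After quantile normalization 6 members were lower and 2 higher. Without amiloride array 2 the count of members lower was 1 and without amiloride array 3 it was 5, and 1 member was higher without amiloride array 1 or 3 or TG003 array 1 or 3.

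Of the 7 paralogs whose names end in L or L1, RPL7L1, RPL22L1, RPL26L1 and RPS27L have a canonical gene among the members, and their values are given side by side. RPL26L1 rose under amiloride in both lines, while RPL26 differed by 0.01 ± 0.12 in JJN3 and -0.00 ± 0.12 in KMS12-BM. RPL22, an RNA-binding protein of the large subunit that represses its own paralog, differed by 0.14 ± 0.08 in JJN3 and 0.08 ± 0.08 in KMS12-BM under amiloride and by 0.05 ± 0.08 and 0.19 ± 0.08 under TG003, none called, where RPL22L1 rose under both drugs in KMS12-BM. RPL22L1 under amiloride in JJN3 was at 5.71, 5.66 and 5.59, against 5.43, 5.44 and 5.39 in DMSO (0.23 ± 0.08, adjusted p = 0.054), and all of these values lay below the background reference. RPL7L1 was at 10.31, 10.25 and 10.55 under amiloride in JJN3, against 9.96, 10.17 and 10.00 in DMSO, without overlap but also without a call (0.33 ± 0.11, adjusted p = 0.055), and its other differences from DMSO were 0.13 ± 0.11 or smaller. In DMSO, RPL7L1 and RPS27L were lower in JJN3 while RPL7 and RPS27 were higher. RPS27L was at 5.37, 5.60 and 5.67 in JJN3 DMSO and 6.11, 6.32 and 6.10 in KMS12-BM DMSO, and no drug contrast called it. RPL3L, a paralog of heart and skeletal muscle, and RPL10L, a paralog of the testis, stayed between 4.43 and 4.82 and between 3.16 and 3.55 on every array, and no comparison called either. Differences between a paralog and its canonical gene were not tested. Over the 47 members that are not such paralogs TG003 in KMS12-BM still gave 11 higher, none lower and a median of 0.21.

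Of the acidic stalk proteins RPLP1 was measured, at 10.41, 10.24 and 10.14 under amiloride, 10.50, 10.57 and 10.29 under TG003 and 10.49, 10.40 and 10.44 in DMSO in JJN3. In KMS12-BM it was at 10.90, 10.94 and 10.72 under amiloride, 10.86, 10.66 and 10.77 under TG003 and 10.57, 10.53 and 10.75 in DMSO. No drug contrast against DMSO called it. RPL11, the measured member of the 5S particle, was at 10.94, 10.77 and 10.95 under amiloride, 10.75, 10.95 and 10.79 under TG003 and 10.90, 10.83 and 10.92 in DMSO in JJN3, which overlap. It was at 11.06, 11.11 and 10.97 under amiloride in KMS12-BM and was lower in JJN3 than in KMS12-BM in DMSO by 0.28 (SE 0.07, adjusted p = 0.0038). RPL10A, like RPL12 a gene with transcript forms that nonsense-mediated decay removes, was not called by any of the 9 contrasts, with differences under amiloride of -0.08 ± 0.10 in JJN3 and -0.02 ± 0.10 in KMS12-BM, where RPL12 fell in both. Among 5 measured members at the exit tunnel (RPL19, RPL22, RPL26, RPL31 and RPL35), 4 were lower in JJN3 than in KMS12-BM, RPL26 being the exception at -0.00 ± 0.12, where 23 of 54 members and 40.7% of genes above the background reference were called lower. Of 14 measured genes whose mutations cause Diamond-Blackfan anaemia, a failure of red cell formation, 4 rose under TG003 in KMS12-BM (RPS15A, RPL11, RPL18 and RPL35A) and all 14 differences were above 0, with a median of 0.22. That is close to the members as a whole, of which 12 of 54 rose, 50 of 54 were above 0 and the median was 0.20, where 8.30% of all genes and 16.4% of genes above the background reference were called higher. In JJN3 none of the 14 was called under TG003 and their median was -0.08. There 6 of 54 members, 9.38% of all genes and 19.0% of genes above the background reference were called in either direction.

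RPL19 and RPS18 are often used to normalise other measurements. RPL19 was at 17.06, 16.91 and 16.89 under amiloride, 16.83, 16.98 and 17.00 under TG003 and 17.00, 16.93 and 17.01 in DMSO in JJN3, which overlap. In KMS12-BM it was at 17.47, 17.61 and 17.41 under amiloride, 17.46, 17.38 and 17.34 under TG003 and 17.26, 17.23 and 17.31 in DMSO, and in DMSO it was lower in JJN3 by 0.28 (SE 0.07, adjusted p = 0.0025). RPS18, represented by the brightest of 7 probe sets, had the largest SE of any member in the drug contrasts, 0.31, with 11.22, 12.61 and 11.88 under TG003 in JJN3. On this probe set none of its contrasts was called. Another RPS18 probe set, with the same values as 4 others, read 11.12, 11.48 and 11.24 under TG003 in JJN3. In DMSO it read 11.29, 11.15 and 11.17 in JJN3 and 11.49, 11.60 and 11.42 in KMS12-BM, without overlap. The SE of 0.31 is thus that of the probe set used, and the other sets were not tested singly. In all, 31 members were called in none of the 4 contrasts of a drug with DMSO. Of these, 18 were not called between the lines or between the responses either. The same joint counts were not made for all genes or for genes above the background reference. Whether 31 or 18 is unusual thus cannot be read from them. Among the 18 members, RPL8, at 16.57 to 17.11 on all arrays, RPL14, RPS16 and RPS21 had SEs of 0.06 to 0.09. The largest drug difference of these 4 genes was -0.18 ± 0.09, of RPS16 under amiloride in JJN3.

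Other genes of the ribosome and of its regulation gave a background for these values. Of 12 measured translation factors and related genes with known TOP messages, 5 rose under TG003 in KMS12-BM and none fell, with a median of 0.16, where 8.30% of all genes and 16.4% of genes above the background reference were called higher. The 5 were NAP1L1 (0.72 ± 0.11, adjusted p = 0.00033), EIF4B (0.39 ± 0.11, adjusted p = 0.02), EEF2 (0.37 ± 0.10, adjusted p = 0.023), TPT1 (0.36 ± 0.08, adjusted p = 0.0053) and EIF3F (0.34 ± 0.10, adjusted p = 0.039). NAP1L1, a histone chaperone, was at 13.71, 13.95 and 13.76 under TG003 and 13.16, 13.13 and 12.97 in DMSO. In JJN3 TG003 raised 1 of the 12, the cytoskeletal VIM (0.49 ± 0.11, adjusted p = 0.0085), where 3.74% of all genes and 7.11% of genes above the background reference were called higher. Under amiloride 2 of the 12 rose (TPT1 and EEF1D) and 2 fell in KMS12-BM, and 1 rose (VIM) and 3 fell in JJN3. Of genes above the background reference 35.7% were called higher and 24.2% lower in KMS12-BM, and 19.6% and 12.3% in JJN3. EIF3L, a subunit of an initiation factor, fell in both lines under amiloride. Its fall was 0.54 in JJN3 (SE 0.11, adjusted p = 0.0034) and 0.60 in KMS12-BM (SE 0.11, adjusted p = 0.00047). EEF1A1, the elongation factor that brings transfer RNAs, was at 17.93, 17.82 and 17.53 under amiloride in KMS12-BM, against 18.45, 18.47 and 18.40 in DMSO, and fell by 0.68 (SE 0.09, adjusted p = 2.2e-05).

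Mitochondrial ribosomal proteins build a separate ribosome inside mitochondria. Of 74 genes measured, 36 rose and 10 fell under amiloride in KMS12-BM with a median of 0.23. In JJN3 under amiloride 19 rose and 1 fell, with a median of 0.16. Of the 54 cytosolic members, 6 rose and 2 fell in KMS12-BM and 1 rose and 4 fell in JJN3. For these counts and those of the lists that follow, 35.7% of genes above the background reference were called higher and 24.2% lower under amiloride in KMS12-BM, and 19.6% higher and 12.3% lower in JJN3. Under TG003 10 of the 74 rose and none fell in KMS12-BM, with a median of 0.04, and 5 rose and 3 fell in JJN3. Of genes above the background reference 16.4% were called higher and 14.2% lower in KMS12-BM, and 7.11% and 11.9% in JJN3. Over all genes these shares were 8.30% and 6.52% in KMS12-BM, and 3.74% and 5.64% in JJN3. MRPL58, a peptidyl-tRNA hydrolase of that ribosome, rose by 0.78 ± 0.12 in JJN3 and by 1.78 ± 0.12 in KMS12-BM under amiloride, the largest rise of the 74 in KMS12-BM (adjusted p = 0.00038 and 1.5e-08). Of 17 regulators of TOP messages and mTORC1, 9 rose and 1 fell under amiloride in JJN3, and 6 rose and 3 fell in KMS12-BM. TSC1, an inhibitor of mTORC1, rose by 0.65 ± 0.11 in JJN3 and by 1.09 ± 0.11 in KMS12-BM (adjusted p = 0.00081 and 1.1e-06). TSC2, its partner in the same inhibitory complex, fell by 0.63 in KMS12-BM (SE 0.11, adjusted p = 0.00024). DDIT4, another inhibitor of mTORC1, was at 8.27, 8.27 and 8.31 in JJN3 under amiloride, against 9.46, 10.36 and 11.43 in DMSO, and fell by 2.13 (SE 0.35, adjusted p = 0.00056), the largest change of these 17 genes. In KMS12-BM the mean of DDIT4 was 8.13 under amiloride and 7.56 in DMSO. SESN2, of the same list, had means of 7.36 under amiloride and 6.27 in DMSO in KMS12-BM, and of 6.74 and 7.06 in JJN3. The SESN2 means in KMS12-BM DMSO and in JJN3 under amiloride lay below the background reference. The called changes of mTORC1 inhibitors named here thus went in both directions. TSC1 rose and TSC2 fell in KMS12-BM, and TSC1 rose and DDIT4 fell in JJN3. For DDIT4 in KMS12-BM and for SESN2 only means are given, so their differences are not read as changes. LARP1, which binds the TOP tract, was at 0.28 ± 0.08 in JJN3 under amiloride (adjusted p = 0.027) and at -0.32 ± 0.08 in KMS12-BM under TG003 (adjusted p = 0.013). Of 24 assembly factors and chaperones of ribosomal proteins, 8 rose and 1 fell under amiloride in JJN3, and 7 rose and 5 fell in KMS12-BM. LSG1, a GTPase of large-subunit maturation, rose and IPO5, an importin that carries ribosomal proteins, fell in all 4 contrasts of a drug with DMSO, LSG1 by 0.29 ± 0.08 to 0.85 ± 0.08 and IPO5 by -0.54 ± 0.07 to -0.36 ± 0.07.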

How the data were processed

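RNA was measured in 18 samples, 3 in each of 6 groups of line and treatment. The authors deposited log2 values of 70523 probe sets, computed by RMA per the submitters' processing notes, a method that corrects background, equalises array distributions and summarises probes. No genome build is named in the sources used here. The labels call the RNA total and the series text poly A+. Values ran between 1.88 and 19.84, with array medians between 4.50 and 4.69, and the number of arrays limits the precision.

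Probe sets with 1 symbol (23781) gave 22465 genes, the brightest set standing for a gene, and 1543 sets with several symbols were left out. One limma model (limma 3.58.1, R 4.3.3) held all arrays and 6 group means. Its 9 contrasts were tested two-sided, p-values were adjusted by Benjamini-Hochberg over the 22465 genes, and calls were made at 0.05. Tables and figures used pandas 2.3.3, numpy 2.4.6 and matplotlib 3.10.9 (Python 3.11.15). The fit was tested on simulated data. Alternatives varied the arrays fitted, the scaling, a replicate block, dim genes, probe sets, the variance model and single arrays. Members and lists were chosen with earlier results of these data known. Named in full are the 5 largest rises and falls per contrast and members of small role groups, and of other lists up to 4 genes per drug contrast, with LARP1 and further values of EIF3F, LSG1 and IPO5 added after they were seen. Replicate numbers follow a serial code in the titles. Of 15 pairs of groups, 4 had same-numbered arrays deviating together at every number (r above 0.1), and TG003 with DMSO, within either line, and the DMSO groups were among them. Whether a group's arrays came from separate cultures is not labelled, so p-values may measure technical spread alone. Start sites are from RefSeq (GRCh38.p14).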

Additional observations from a re-analysis of the deposited data

Results flagged for a closer look

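Drug responses that differed between JJN3 and KMS12-BM, tested as the difference of the differences in limma, were found for 10 member values. For amiloride, given at 0.4 mM to JJN3 and 0.1 mM to KMS12-BM, a difference was called for 5 of 54 members, all lower in JJN3: RPL39L by -0.62, RPS12 by -0.54, RPLP1 by -0.42, RPL24 by -0.35 and RPL22L1 by -0.33. As a share (9.26%) that is below the 18.5% of all genes and 37.7% of genes above the background reference called in this comparison. For TG003, given at 0.4 mM to both, one was also called for 5 of 54 members, all lower in JJN3: RPL36 by -0.64, RPL31 by -0.64, RPS15 by -0.47, RPL22L1 by -0.45 and RPL18 by -0.37. That is close to the 9.56% of genes above the background reference called here, with 4.57% over all genes. Serum differed with the line in both comparisons, and its part was not tested. Only the RPL31 difference held in every alternative run, but all JJN3 values of RPL31 lay below the background reference, and it passed the filter on dim genes through KMS12-BM alone. That of RPL39L was lost after a further quantile normalization (adjusted p = 0.054) and that of RPS12 without KMS12-BM amiloride array 2 (adjusted p = 0.053). All RPL39L values under amiloride in JJN3, and all group means of RPL22L1, also lay below the background reference.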

How the results depend on the processing

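No called value of a named gene turned its direction under any alternative run. The members' median difference under TG003 in KMS12-BM stayed above 0, but 7 were called higher in a fit of only those groups, and 4 to 10 with 1 array left out. In that narrower fit, TG003 in JJN3 called 2 higher and 0 lower, amiloride in KMS12-BM 1 lower, amiloride in JJN3 2 higher, and amiloride against TG003 in JJN3 1 higher and 1 lower. Centring arrays on their median gave 1 lower for amiloride in KMS12-BM, 2 higher for amiloride in JJN3, a median of -0.22 between the lines, 3 lower for the difference in amiloride responses and 2 higher for amiloride against TG003 in KMS12-BM. A further quantile normalization gave 6 lower and a median of -0.02 for amiloride in KMS12-BM, 2 higher and a median of -0.04 for amiloride in JJN3, 1 lower for TG003 in JJN3, 1 higher and a median of -0.01 for the difference in amiloride responses, 3 lower and a median of -0.15 for that in TG003 responses, 3 higher, 20 lower and a median of -0.21 for amiloride against TG003 in KMS12-BM, and 6 lower for it in JJN3. With dim genes left out, amiloride against TG003 called 0 of 49 higher in KMS12-BM and 1 higher and 5 lower in JJN3. An intensity trend with robust variance gave 1 lower for amiloride in KMS12-BM, 1 lower for TG003 in JJN3, 2 lower for the difference in amiloride responses and 1 higher for amiloride against TG003 in JJN3. The causes of these moves were not tested.

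The labels state no pairing of samples. Same-numbered arrays deviated together at every number for TG003 with DMSO in each line and for the lines in DMSO. KMS12-BM amiloride with JJN3 TG003, which share neither line nor drug, passed the same check. With the replicate block, TG003 in KMS12-BM called 14 higher and 0 lower, TG003 in JJN3 4 and 2, and the lines 4 and 24, so no count there moved by over 1.5 times, and of 144 called values of named genes 1 lost its call. Amiloride and DMSO arrays in JJN3 did not deviate together at every number, and there 3 members were called higher with the block instead of 1. Of 18 arrays 15 correlated best with their own number, which is a hint from the data, not the design.

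Leaving out 1 array in turn gave 1 to 2 lower for amiloride in KMS12-BM, 0 to 1 higher, 2 to 4 lower and medians of -0.02 to 0.05 for amiloride in JJN3, 1 to 4 higher and 0 to 3 lower for TG003 in JJN3, 2 to 4 higher and medians of -0.22 to -0.14 between the lines, 0 to 1 higher and 1 to 7 lower for the difference in amiloride responses, 1 to 7 lower and medians of -0.25 to -0.18 for that in TG003 responses, 1 to 2 higher and 6 to 13 lower for amiloride against TG003 in KMS12-BM, and 1 to 3 higher, 1 to 5 lower and medians of -0.02 to 0.09 for it in JJN3. With 3 arrays in a group, many calls near the threshold moved with 1 array, and the values of 5 members lie below the background reference.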

Other observations

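RPL30, a large-subunit protein, has a second probe set that the rule did not use, singled out here after its values were seen. On it, KMS12-BM arrays read 6.80, 6.38 and 6.64 under amiloride, 8.41, 8.13 and 8.23 under TG003, and 7.10, 7.07 and 7.04 in DMSO. The TG003 arrays lay wholly above the DMSO arrays and the amiloride arrays wholly below them. In JJN3 it read 6.57, 6.83 and 6.73 under amiloride, 7.32, 7.28 and 7.14 under TG003, and 6.81, 7.13 and 6.84 in DMSO. All amiloride values of this second probe set lay below the background reference of 6.87, as did 6.81 and 6.84 in JJN3 DMSO. The lower values under amiloride in KMS12-BM thus rest on dim signals. On the probe set used, KMS12-BM arrays read 10.08, 10.00 and 10.14 under TG003, against 9.75, 10.02 and 9.92 in DMSO, which overlap. The difference between the probe sets was not tested.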
